A study of Homo sapiens with 4 samples.

Results

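The endoplasmic reticulum (ER) folds the proteins a cell secretes or places in its membranes, destroys those that fail to fold, and reports the load to the nucleus. A set of 40 genes for these tasks was described in MDA-MB-231, a long-established cell line from a human breast cancer of the triple-negative type. The members were picked by symbol from the 58735 genes of the deposited table. They comprise 9 enzymes and related proteins of disulfide chemistry, 3 genes of the lectin chaperone cycle, 5 co-chaperones and other folding proteins, 13 genes of ER-associated degradation, 6 stress sensors and factors, and 4 genes of the translocon and of transport out of the ER. Chaperones with heat-shock or DNAJ names were left out of the set by its rule. All 40 symbols were found once in the table, and 39 averaged 1 CPM or more (read counts scaled to library size) across the libraries and were compared. DERL3 was not, with 0, 0, 1 and 4 reads in Bulk, Claret, eGFP and Violet.

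All groups came from cells transduced with TetOn-H2BeGFP, a doxycycline-inducible fluorescent histone. Doxycycline at 5 μg/ml was given for 3 days, the cells were labelled with Claret and Violet, and a chase of 12 days followed, during which dividing cells dilute each label. Claret, eGFP and Violet are the cells in the top 1% for retention of that label, sorted separately as slow-cycling cells, and Bulk cells went through the sorter without a fluorescence gate. Each group holds 1 library of the same transduced line, so every difference is one between libraries with no replicate check, and the labels name no separate cultures. All 3 comparisons with Bulk share the same Bulk library and are not independent of each other.

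Groups follow the sample titles, which also name the columns of the tables. In all 4 samples the treatment field names another sort than the title: the library titled Bulk is there Claret, Claret is eGFP, eGFP is Violet, and Violet is un-gated. The libraries held 15508179 to 16976909 reads, and mitochondrial genes took 4.18% of them in Bulk and 5.06% to 5.48% in the slow-cycling libraries. The label of the line was checked on its markers: VIM stood at 156 to 211 FPKM (reads scaled for gene length and library size), PGR had 0 reads, ESR1 3 to 7, CDH1 0 to 3, and the 4 leukocyte markers together 2 to 6. The other luminal and receptor markers were not at 0: ERBB2 had 1415 to 1542 reads, GATA3 74 to 95 and EPCAM 28 to 61, and the list of 6 summed to between 98.8 and 100.1 CPM in the 4 libraries. Of the other mesenchymal markers, CAV1 lay below Bulk at -0.85, -0.95 and -0.77 on the log2 scale, CD44 read -0.01, 0.11 and -0.15 and AXL 0.04, -0.10 and -0.25. The 3 endothelial markers summed to 63 reads in Bulk and 75 to 113 in the slow-cycling libraries, with CDH5 at 0 to 2. The 5 cycling-cell markers (MKI67, TOP2A, CCNB1, CDK1 and MCM2) were all called lower, from 1853 CPM in sum in Bulk to 308 to 408 CPM. These markers thus moved with the sort in every comparison below, and their part in the results was not tested. By the titles, the library with the highest sum is the un-gated one. By the treatment field, that library would be the Claret sort, and the un-gated library would hold 408 CPM. Values given in a row are in the order Bulk, Claret, eGFP, Violet, and ratios to Bulk in the order Claret, eGFP, Violet. In RNA from many cells, fewer cells of a kind and less RNA per cell cannot be told apart.

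In the unfolded-protein response, 3 sensors in the ER membrane detect unfolded protein. IRE1, encoded by ERN1, cuts XBP1 mRNA so that an active factor is made. ATF6 moves to the Golgi, where it is cleaved to release a factor, and PERK, encoded by EIF2AK3, slows translation and raises ATF4. The factors from XBP1 and ATF6 act on promoters of chaperones, of disulfide enzymes and of ER-associated degradation (ERAD), which draws misfolded proteins back to the cytosol for the proteasome. Gene counts do not separate cut from uncut XBP1 mRNA and do not report cleavage of ATF6 or activity of PERK.

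The differences were spread over both directions, and the members called higher came from 4 of the 6 roles. A gene was called when it differed at least 2-fold and when a two-sided exact conditional binomial test on the reads of both libraries, with Benjamini-Hochberg adjustment over the 14585 genes compared, gave an adjusted p under 0.05. Against Bulk, 6 of 39 members were called higher in Claret, where 11.3% of all genes compared were, 6 in eGFP, where 11.9% were, and 6 in Violet, where 11.3% were. In each comparison these were ERN1, XBP1, HERPUD1, CRELD1, ERO1B and CDNF. Grouped by the treatment field instead, where the library titled Violet is the ungated one, no member was called higher in any comparison and 6 were called lower in Claret. The 15.4% of members called higher is near the share of all genes in each single comparison, while 8.38% of all genes were called higher in all 3, which share the Bulk library. Nothing particular to the set is read from these counts. No member was called lower, where 6.68% of all genes were in Claret, 7.63% in eGFP and 7.01% in Violet. Below Bulk with an unadjusted p under 0.05 in the same exact test were 16, 18 and 18 members, next to 36.3%, 36.8% and 36.2% of all genes. With the threshold at 1.5-fold, 8, 10 and 8 members were higher, next to 19.8%, 20.5% and 20.4% of all genes, and 2, 2 and 1 were lower, next to 16.6%, 17.8% and 16.9%.

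The members' median log2 ratio to Bulk was 0.03 (Claret), 0.03 (eGFP) and -0.03 (Violet), against -0.01, -0.01 and 0.00 for all genes compared. Over the 25 members of which at most 5% of exonic bases overlap another gene, a choice made after seeing the data, the medians were 0.17, 0.24 and 0.20. The log2 ratio lay above 0 for 21, 20 and 19 of the 39 members in Claret, eGFP and Violet, next to 49.6%, 49.4% and 50.1% of all genes. The single members ran from SDF2L1, at -0.81 to -0.92, to CDNF and ERN1, at 2.08 to 2.27.

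**Figure D1:**
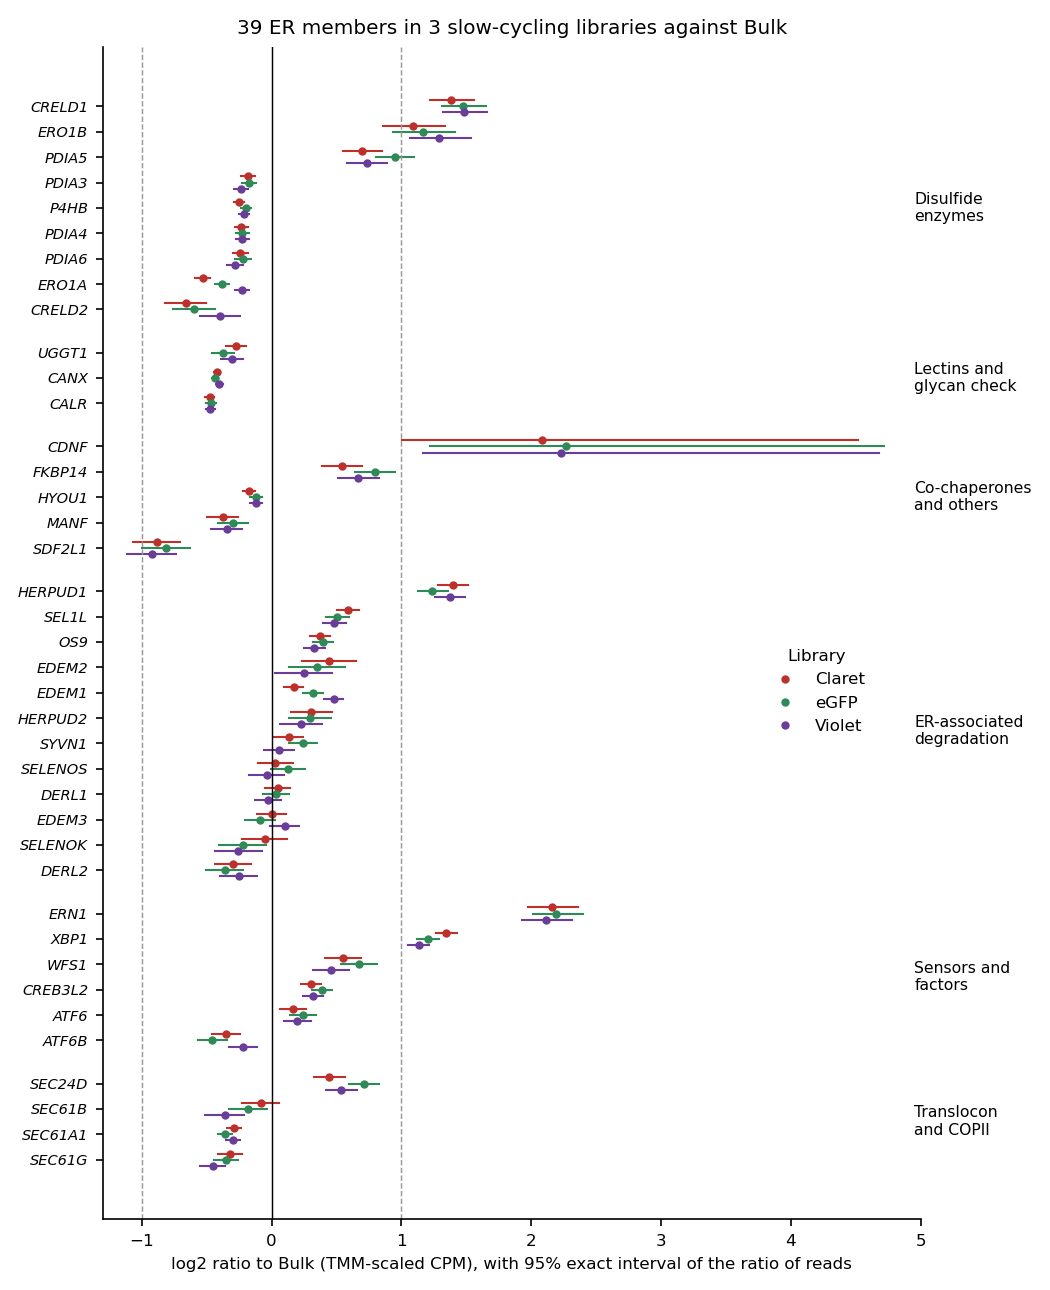
Log2 ratio of TMM-scaled CPM to Bulk (x axis) for the 39 members compared, ordered by role, in Claret (red), eGFP (green) and Violet (violet); bars are 95% exact intervals of the ratio of reads and dashed lines mark 2-fold. ERN1, XBP1, HERPUD1, CRELD1, ERO1B and CDNF lie right of the 2-fold line in each library, SDF2L1 is the member farthest to the left, and CDNF, with 4 reads in Bulk, has the widest intervals.

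Promoters were examined because some of the best-known response elements of this pathway were defined in genes of the set. RefSeq promoters on GRCh38.p14, 250 bases before the start and 50 from it, were at hand for 35 of the 40 members and 14896 protein-coding genes in all. The ER stress response element (ERSE, CCAAT and CCACG with any 9 bases between them) was searched on both strands, as were ERSE-II (ATTGG and CCACG with any 1 base between them) and the unfolded-protein response element (UPRE, TGACGTGG). The ERSE was found in 5 members and 0.128% of all promoters, the ERSE-II in 3 members and 0.0806%, and the UPRE in 1 member and 0.853%. The windows that hold them are shown because they occur in members that rose and in members below Bulk. They are given 5′ to 3′ on the gene's strand with the motifs in capitals; an element on the other strand reads as its reverse complement. ERO1B lies at chr1:236282173-236282208 (minus strand), CANX at chr5:179698768-179698806 (plus), HYOU1 at chr11:119057264-119057403 (minus), HERPUD1 at chr16:56931956-56932045 (plus), CALR at chr19:12938374-12938412 (plus), SDF2L1 at chr22:21642104-21642134 (plus), XBP1 at chr22:28800593-28800631 (minus) and CRELD2 at chr22:49918544-49918582 (plus).
XBP1: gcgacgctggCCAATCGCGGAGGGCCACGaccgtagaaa
ERO1B: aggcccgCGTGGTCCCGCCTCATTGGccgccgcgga
HERPUD1: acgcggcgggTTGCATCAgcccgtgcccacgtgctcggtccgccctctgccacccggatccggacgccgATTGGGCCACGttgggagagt
CALR: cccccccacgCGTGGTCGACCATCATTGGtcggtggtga
CANX: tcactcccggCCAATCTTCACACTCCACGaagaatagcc
CRELD2: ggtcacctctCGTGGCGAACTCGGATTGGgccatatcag
SDF2L1: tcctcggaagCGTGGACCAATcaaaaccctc
HYOU1: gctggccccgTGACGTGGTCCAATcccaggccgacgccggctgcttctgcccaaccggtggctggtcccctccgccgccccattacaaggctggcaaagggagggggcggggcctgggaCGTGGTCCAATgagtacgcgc

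Counted from the first transcribed base as 0, the ERSE of XBP1 lay at -52 to -34, that of CRELD2 at -80 to -62, that of CANX at -151 to -133, that of CALR at -225 to -207 and that of ERO1B at -243 to -225. In HYOU1 the UPRE at -188 to -181 overlapped the first ERSE-II at -185 to -175, and the other ERSE-II lay at -79 to -69. The HERPUD1 window also holds TTGCATCA, an amino-acid response core bound by factors such as ATF4, at -176 to -169, which 0.638% of all promoters hold and no other member did. The cyclic AMP element TGACGTCA was found in CREB3L2 alone among the members, against 2.59% of all promoters. The AP-1 pattern TGANTCA, with N any base, matched ATF6B (as TGATTCA) and SEC61B (as TGAGTCA), against 5.78% of all promoters. The RefSeq start lies inside the gene span of the deposited table by 27 to 94 bases for ERO1B, XBP1, CALR, SDF2L1 and HERPUD1, by 467 bases for CRELD2 and by 20301 bases for CANX, and for HYOU1 it lies just outside. Of the 8 members with an ERSE, ERSE-II or UPRE, XBP1, ERO1B and HERPUD1 were called higher in each comparison, while CALR, CANX, CRELD2, SDF2L1 and HYOU1 had log2 ratios below 0. The median of the 8 was -0.30 (Claret), -0.28 (eGFP) and -0.26 (Violet), and that of the 27 members whose windows held none was 0.03, 0.13 and 0.06. A match is a stretch of letters, not a site shown to be bound.

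Among the stress sensors and factors, ERN1 and XBP1 rose and the ATF6 genes stayed within 2-fold of Bulk. ERN1 (ENSG00000178607, GRCh38 chromosome 17, 64039142 to 64130819) encodes IRE1, the kinase and endoribonuclease that cuts XBP1. It had 270 (Bulk), 1306 (Claret), 1251 (eGFP) and 1176 (Violet) reads, or 1.60, 7.08, 7.21 and 6.74 FPKM. The slow-cycling libraries lay close together and far above Bulk: the log2 ratios were 2.16 (95% interval 1.98 to 2.36), 2.19 (2.01 to 2.40) and 2.11 (1.93 to 2.31), or 4.47-fold, 4.57-fold and 4.32-fold.

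XBP1 (ENSG00000100219, chromosome 22, 28794555 to 28800597) encodes the bZIP factor made after that cut. Its reads numbered 1700 (Bulk), 4648 (Claret), 3953 (eGFP) and 3738 (Violet), or 36.1, 90.4, 81.7 and 76.9 FPKM. The log2 ratio was 1.34 (1.26 to 1.43) in Claret, 1.21 (1.12 to 1.29) in eGFP and 1.13 (1.05 to 1.22) in Violet. XBP1 was thus the only called member among the 13 with the highest mean FPKM.

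ATF6 and ATF6B, paralogous membrane-bound factors, lay on opposite sides of Bulk. ATF6 had 1453, 1756, 1733 and 1672 reads in Bulk, Claret, eGFP and Violet, with log2 ratios of 0.17, 0.24 and 0.20. ATF6B had 1556, 1312, 1143 and 1339 reads, with log2 ratios of -0.35 (-0.46 to -0.25), -0.46 (-0.57 to -0.34) and -0.22 (-0.33 to -0.11). Neither was called. WFS1, the ER membrane protein wolframin, stood at 705, 1110, 1134 and 971 reads and at 0.55, 0.67 and 0.46, and CREB3L2, a membrane-bound factor of the OASIS family, at 0.31, 0.39 and 0.32. The 6 genes together held 509 CPM in Bulk and 774 to 792 in the slow-cycling libraries. Most of that rise came from XBP1 and ERN1, so the sum does not describe the typical gene of the 6.

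In ER-associated degradation HERPUD1 rose, and the core of the HRD1 ligase complex stayed within 2-fold of Bulk. HERPUD1 (ENSG00000051108, chromosome 16, 56932048 to 56944863) encodes the ubiquitin-like membrane protein Herp, which binds the HRD1 ligase. It had 851 (Bulk), 2411 (Claret), 2027 (eGFP) and 2215 (Violet) reads, or 10.6, 27.6, 24.6 and 26.8 FPKM. Each slow-cycling library was far above Bulk, with log2 ratios of 1.39 (1.28 to 1.51), 1.24 (1.13 to 1.36) and 1.37 (1.26 to 1.49). HERPUD2, its paralog, had 572, 761, 707 and 671 reads and log2 ratios of 0.30, 0.29 and 0.23.

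The subunits of the ligase complex differed among themselves. SEL1L, the adaptor that stabilises the ligase, had 1765, 2857, 2524 and 2477 reads, with log2 ratios of 0.59 (0.50 to 0.67), 0.50 (0.42 to 0.59) and 0.48 (0.40 to 0.57). SYVN1, the HRD1 ligase itself, was nearer to Bulk at 0.13, 0.24 and 0.06, and its interval in Violet, -0.06 to 0.17, included 0. OS9, a lectin that delivers glycoproteins to the complex, stood at 0.37, 0.39 and 0.33. Of the 3 EDEM genes, which act on the mannoses of misfolded glycoproteins, EDEM2 read 0.44, 0.35 and 0.25 and EDEM1 0.17, 0.32 and 0.48, while EDEM3 lay at 0.00, -0.09 and 0.10 with intervals that included 0.

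The Derlins, membrane proteins of the exit channel, did not share a direction. DERL1 had 1569, 1744, 1619 and 1544 reads, and its intervals included 0 in all 3 comparisons, as did those of SELENOS, a selenoprotein that recruits the extracting ATPase, at 0.03, 0.13 and -0.04. DERL2 had 884, 775, 693 and 745 reads and log2 ratios of -0.30, -0.36 and -0.25. SELENOK, a selenoprotein that binds the Derlins, read -0.05, -0.22 and -0.26. The median over the 12 ERAD members compared was 0.15 (Claret), 0.27 (eGFP) and 0.16 (Violet), with 1 of 12 called in each. In sum the ERAD members took 930 CPM in Bulk (95% exact interval 915 to 945) and 1170 to 1206 in the slow-cycling libraries.

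Of the disulfide group, ERO1B and CRELD1 rose, and the abundant disulfide isomerases lay slightly below Bulk. ERO1B (ENSG00000086619, chromosome 1, 236215555 to 236281985), an oxidase that recharges the isomerases, had 210 (Bulk), 483 (Claret), 477 (eGFP) and 519 (Violet) reads, or 2.52, 5.31, 5.57 and 6.03 FPKM. Its log2 ratios were 1.09 (0.86 to 1.34), 1.17 (0.94 to 1.41) and 1.29 (1.07 to 1.54), all above Bulk. On the scale log2(FPKM + 1) it was 0.84, 0.90 and 0.998 and no longer passed 2-fold. The added 1 is large next to 2.52 FPKM in Bulk and shrinks the ratio by construction. ERO1A, its paralog and a hypoxia-responsive gene, had 6023, 4489, 4655 and 5169 reads, at log2 ratios of -0.53 (-0.59 to -0.47), -0.38 (-0.44 to -0.33) and -0.22 (-0.28 to -0.17).

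CRELD1 (ENSG00000163703, chromosome 3, 9933822 to 9945413) encodes a membrane protein with EGF-like repeats. It had 392 (Bulk), 1106 (Claret), 1102 (eGFP) and 1104 (Violet) reads, or 6.68, 17.2, 18.3 and 18.2 FPKM, nearly equal in the slow-cycling libraries, with log2 ratios of 1.39 (1.22 to 1.56), 1.48 (1.31 to 1.65) and 1.49 (1.32 to 1.66). CRELD2 (ENSG00000184164, chromosome 22, 49918167 to 49927540), its secreted relative and an ER stress gene, had 793, 540, 528 and 603 reads, at log2 ratios of -0.66 (-0.82 to -0.50), -0.60 (-0.76 to -0.44) and -0.40 (-0.55 to -0.24). All 3 slow-cycling libraries read CRELD2 below Bulk, short of 2-fold.

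The protein disulfide isomerases split by level. P4HB, the archetype of the family, stood at 153 FPKM in Bulk and 126 to 131 in the slow-cycling libraries, with log2 ratios of -0.25, -0.19 and -0.21. PDIA3, which works with the lectin chaperones, read -0.18, -0.18 and -0.23, PDIA4 -0.23, -0.22 and -0.22, and PDIA6 -0.24, -0.22 and -0.28. PDIA5, with the lowest FPKM of the 5, had 571, 998, 1112 and 953 reads at log2 ratios of 0.70 (0.55 to 0.85), 0.95 (0.80 to 1.10) and 0.73 (0.58 to 0.89), which missed the 2-fold threshold in each comparison.

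The 3 members of the lectin chaperone cycle, which holds newly made glycoproteins until they fold, lay below Bulk in each comparison, and none was called. CALR (ENSG00000179218, chromosome 19, 12938578 to 12944489) encodes the soluble lectin calreticulin and had the highest FPKM of the set. It had 14920 (Bulk), 11535 (Claret), 10881 (eGFP) and 10796 (Violet) reads, or 354, 250, 251 and 248 FPKM, at log2 ratios of -0.48 (-0.51 to -0.44), -0.47 (-0.50 to -0.43) and -0.47 (-0.51 to -0.43). CANX (ENSG00000127022, chromosome 5, 179678628 to 179730925), the membrane-bound calnexin, had 31354, 25211, 23366 and 23797 reads and -0.42 (-0.44 to -0.40), -0.43 (-0.46 to -0.41) and -0.40 (-0.43 to -0.38). UGGT1, which tags unfolded glycoproteins for another round, stood at -0.27, -0.37 and -0.30. The 3 genes took 3055 CPM in Bulk and 2291 to 2373 in the slow-cycling libraries.

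Among the co-chaperones and other folding proteins, CDNF rose from almost no reads and SDF2L1 had the lowest ratio of the set. CDNF (ENSG00000185267, chromosome 10, 14819250 to 14838575), a secreted neurotrophic factor resident in the ER, had 4 (Bulk), 25 (Claret), 27 (eGFP) and 26 (Violet) reads, or 0.149, 0.850, 0.975 and 0.934 FPKM. Its log2 ratios of 2.08 (1.00 to 4.52), 2.27 (1.22 to 4.72) and 2.23 (1.17 to 4.68) rest on few reads. CDNF passed the filter on low counts through the slow-cycling libraries, and on the scale log2(FPKM + 1) it read 0.69, 0.78 and 0.75. There the added 1 exceeds its FPKM in each library and shrinks the ratio by construction. MANF, its relative and an ER stress gene, had 1307, 1083, 1071 and 1032 reads and log2 ratios of -0.38, -0.30 and -0.34.

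SDF2L1 (ENSG00000128228, chromosome 22, 21642261 to 21644298), a partner of the ER chaperone BiP, had 675 (Bulk), 394 (Claret), 387 (eGFP) and 357 (Violet) reads, or 39.5, 21.1, 22 and 20.2 FPKM. Bulk was the highest library by far, with log2 ratios of -0.88 (-1.07 to -0.70), -0.81 (-0.997 to -0.63) and -0.92 (-1.11 to -0.74), which are 1.84-fold, 1.75-fold and 1.89-fold lower. It was not called, but after a correction for GC content it read -1.11, -1.05 and -1.13 and was called lower in each comparison. FKBP14, a prolyl isomerase that acts on procollagen, had 545, 854, 953 and 868 reads and log2 ratios of 0.54, 0.79 and 0.67. HYOU1, an exchange factor for BiP with the UPRE and ERSE-II letters shown above, read -0.18, -0.12 and -0.12.

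The genes of the translocon, the channel through which new proteins enter the ER, were near or below Bulk. SEC61A1, its pore, read -0.29, -0.36 and -0.30, SEC61G -0.32, -0.35 and -0.45, and SEC61B -0.08, -0.18 and -0.36. SEC24D, a cargo-binding subunit of the COPII coat that carries proteins out of the ER, had 978, 1435, 1616 and 1423 reads at log2 ratios of 0.45 (0.33 to 0.57), 0.71 (0.60 to 0.83) and 0.54 (0.42 to 0.66). None of the 4 was called.

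**Figure D2:**
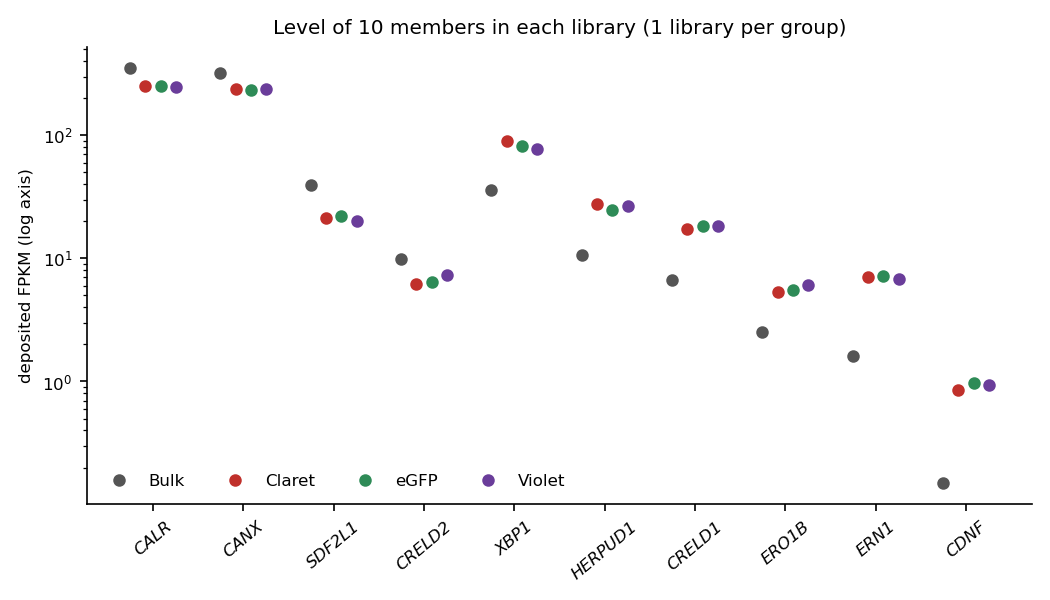
Deposited FPKM on a log axis of the 6 members called higher and of CALR, CANX, SDF2L1 and CRELD2, chosen as low-ratio members after their values were seen, with 1 point per library (Bulk grey, Claret red, eGFP green, Violet violet). Bulk is the lowest point for XBP1, HERPUD1, CRELD1, ERO1B, ERN1 and CDNF and the highest for the other 4, which hold both the most abundant members, CALR at 354 and CANX at 324 FPKM in Bulk, and CRELD2 at 9.88.

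Summed by role, the folding members took fewer reads in the slow-cycling libraries than in Bulk, and the ERAD members and sensors more. Of all reads, the 40 members took 0.809% (Bulk), 0.743% (Claret), 0.752% (eGFP) and 0.767% (Violet). The 17 folding members held 6038 CPM in Bulk (95% exact interval 6000 to 6076) and 4926, 5024 and 5148 in the slow-cycling libraries. Unlike the ratios, these sums are without TMM scaling. Most of that sum is CANX, CALR and P4HB, so it describes the abundant genes and not the typical one. By the rule of the set it leaves out HSPA5, with 12983, 21774, 19635 and 18355 reads, and HSP90B1, with 13768, 17612, 17155 and 16746. Of the 9 ER chaperones with heat-shock or DNAJ names, 7 had log2 ratios above 0 and 2 below in each comparison. The higher ERAD sum likewise holds for the members only. The 25 other ERAD genes compared had median log2 ratios of -0.24 (Claret), -0.19 (eGFP) and -0.31 (Violet), with 15, 16 and 16 below 0. The folding members' median log2 ratio was -0.24 (Claret), -0.22 (eGFP) and -0.22 (Violet), with 12 of 17 below 0 in each, and that of the 6 sensors and factors was 0.43, 0.53 and 0.39, with 5 of 6 above 0.

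**Figure D3:**
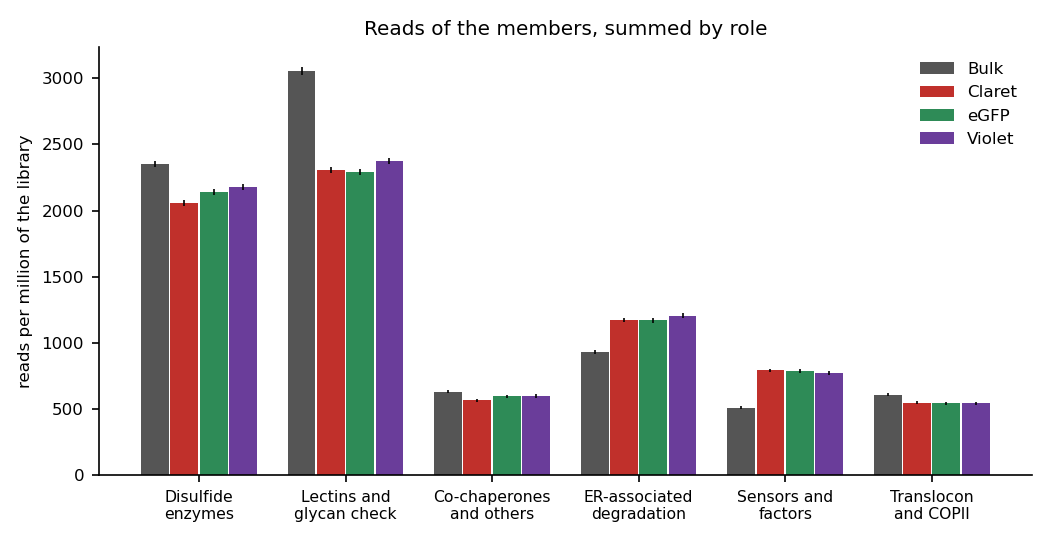
CPM summed over the members of each of 6 roles (y axis, bars from 0; Bulk grey, Claret red, eGFP green, Violet violet), with 95% exact intervals that cover counting error only. The lectin bars drop from 3055 in Bulk to 2291 to 2373, and the ERAD and sensor bars are higher in the slow-cycling libraries than in Bulk.

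The direction of the difference varied with level among the members. Of the 13 members with the highest FPKM averaged over the 4 libraries, 11 had log2 ratios below 0 in each comparison; the exceptions were XBP1 and OS9. Among the 1065 genes in the same range of FPKM, from 35.3 to 276, 49.2% lay below 0 (Claret), 50.3% (eGFP) and 52.7% (Violet). Of the 13 members with the lowest mean FPKM, 3, 4 and 3 lay below 0, next to 50.8%, 50.9% and 49.8% of the 9408 genes in their range. Of the 13 members in the middle, 4, 4 and 6 lay below 0, next to 59.2%, 59.2% and 61.9% of the 1967 genes in their range. Apart from XBP1 and OS9, the 13 highest are folding or translocon genes, so level and role cannot be told apart in them. The split is a description of these genes, which were not sampled at random.

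**Figure D4:**
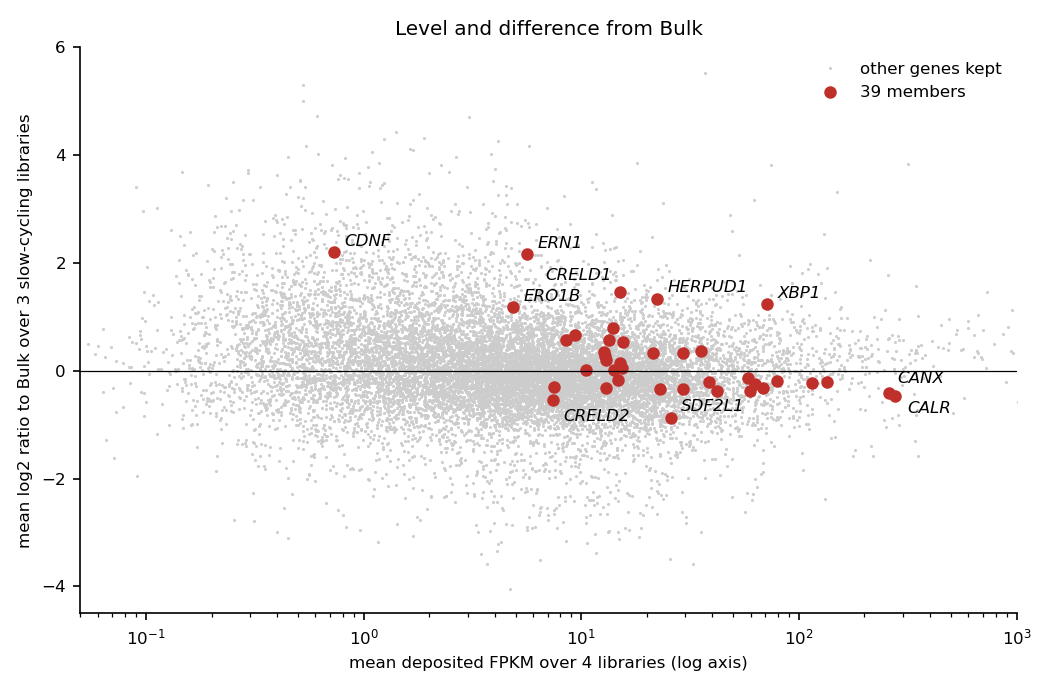
Mean log2 ratio to Bulk over the 3 slow-cycling libraries (y axis) against mean deposited FPKM over the 4 libraries (x axis, log scale) for the 39 members (red) and the other genes compared (grey; genes outside the x axis are not drawn). The red points at the right, from CALR and CANX down to 35.3 FPKM, lie below 0 apart from XBP1 and OS9, while ERN1, ERO1B and CDNF are high at low FPKM.

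Related members can be set against each other within a library, which does not depend on how libraries are scaled. The CRELD1 to CRELD2 ratio of FPKM went from 0.676 in Bulk to 2.80, 2.85 and 2.50, so the order of the pair turned over, with a log2 change of 2.05 (95% exact interval 1.82 to 2.28), 2.08 (1.84 to 2.31) and 1.89 (1.66 to 2.12). ERO1B to ERO1A went from 0.0491 to 0.151, 0.144 and 0.141, a log2 change of 1.63 (1.38 to 1.87), 1.56 (1.31 to 1.80) and 1.53 (1.29 to 1.77), with ERO1A still the larger. HERPUD1 and HERPUD2 had almost equal FPKM in Bulk, at a ratio of 0.937, and stood at 1.99, 1.81 and 2.08 in the slow-cycling libraries.

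The largest change among the paralog pairs was that of CDNF to MANF, which rests on few reads of CDNF. This ratio changed by 2.91 (1.37 to 4.90), 3.04 (1.51 to 5.02) and 3.04 (1.51 to 5.02) on the log2 scale, yet CDNF remained a small fraction of MANF, at 0.0317 to 0.0347 of its FPKM. PDIA5 to PDIA4 changed by 0.93, 1.18 and 0.96, against 1.09, 0.95 and 1.15 for HERPUD1 to HERPUD2, so it changed more in eGFP. The other paralog pairs compared shifted less than these. ATF6 to ATF6B changed by 0.52, 0.70 and 0.42, and DERL1 to DERL2 by 0.34, 0.40 and 0.22. CANX and CALR kept nearly the same proportion, with changes of 0.06 (0.01 to 0.10), 0.03 (-0.01 to 0.07) and 0.07 (0.03 to 0.11). The sensor ERN1 changed against ATF6 by 2.0 (1.78 to 2.22), 1.96 (1.74 to 2.18) and 1.92 (1.70 to 2.14).

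**Figure D5:**
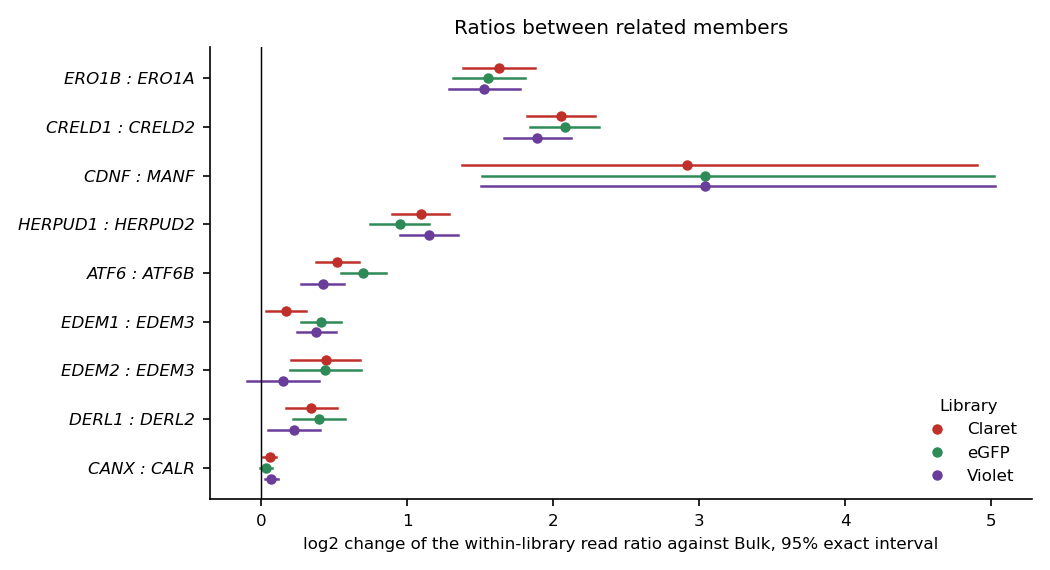
Log2 change of the ratio of reads of 2 related members within a library, each slow-cycling library against Bulk (points; Claret red, eGFP green, Violet violet) with 95% exact intervals. CDNF to MANF, CRELD1 to CRELD2, ERO1B to ERO1A and HERPUD1 to HERPUD2 show the largest changes of the 9 pairs drawn, and CANX to CALR lies next to 0.

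Between the slow-cycling libraries the members were close to each other. No member was called in any of the 3 pairs, where 0.761% of all genes were called between Claret and eGFP, 0.816% between Claret and Violet and 1.01% between eGFP and Violet, in either direction. With no fold threshold, 15, 12 and 17 members had an unadjusted p under 0.05 in the exact conditional binomial test, next to 25%, 28.7% and 29.1% of all genes, and 8, 6 and 9 an adjusted p under 0.05, against 12.6%, 17.6% and 17.4% of all genes. The spread of a member's 3 log2 ratios, highest minus lowest, had a median of 0.11, and 0.20 over all genes compared, which include many with fewer reads.

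EDEM1 and ERO1A had the widest spread of the members, 0.31 each, and passed the adjusted p in all 3 pairs. For EDEM1 the log2 ratio of Claret to Violet was -0.31 (-0.38 to -0.24), that of Claret to eGFP -0.15 (-0.22 to -0.08) and that of eGFP to Violet -0.16 (-0.23 to -0.09), so Violet was the highest and Bulk the lowest library. For ERO1A the same 3 ratios were -0.31 (-0.36 to -0.25), -0.15 and -0.16, so Violet was again above Claret and eGFP, but Bulk was the highest. XBP1 ran the other way, with 0.21 (0.15 to 0.27) between Claret and Violet and 0.14 (0.08 to 0.20) between Claret and eGFP. PDIA5 and SEC24D were highest in eGFP, PDIA5 by 0.25 over Claret and 0.22 over Violet and SEC24D by 0.27 and 0.18. These gaps are between single libraries.

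The other genes of the pathway were taken from 10 lists with 145 genes, of which 139 were compared. In Claret 8 were called higher and 2 lower, in eGFP 7 and 2, and in Violet 5 and 2. That is 5.76%, 5.04% and 3.6% called higher, where 11.3%, 11.9% and 11.3% of all genes were, and 1.44% called lower in each, where 6.68%, 7.63% and 7.01% were, with medians of 0.01, 0.02 and -0.02. The PERK arm had 4, 3 and 3 of its 8 genes called higher, where 11.3%, 11.9% and 11.3% of all genes were, and a median of 0.88, 0.77 and 0.73. ATF4, the factor translated when PERK is active, had 3629 (Bulk), 14198 (Claret), 12544 (eGFP) and 11767 (Violet) reads (log2 ratios 1.86, 1.78 and 1.69). Its targets were also higher in each library: DDIT3, which encodes CHOP, had 101, 541, 510 and 426 reads, and TRIB3, a pseudokinase, 451, 3895, 3381 and 3136. PPP1R15A, a phosphatase subunit that ends the block on translation, read 1.04, 0.90 and 0.89 and was called in Claret alone, and its relative PPP1R15B read 0.03, 0.04 and 0.02. NFE2L2, an antioxidant factor, read 0.72, 0.65 and 0.57. The gene of the sensor itself, EIF2AK3, read 0.17, 0.17 and 0.05. EIF2S1, the initiation factor subunit that PERK phosphorylates, lay below Bulk at -0.74, -0.89 and -0.97. Whether PERK was active, or stood behind the higher ATF4, DDIT3 and TRIB3, was not tested.

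Among the 9 ER chaperones with heat-shock or DNAJ names, 1 was called higher in each comparison. This was DNAJB9, a co-chaperone of BiP and a well-known XBP1 target, with 233, 517, 557 and 485 reads and log2 ratios of 1.04, 1.24 and 1.05. HSPA5, which encodes BiP, had 12983 (Bulk), 21774 (Claret), 19635 (eGFP) and 18355 (Violet) reads, and its ratios of 0.64, 0.59 and 0.50 did not reach 2-fold. DNAJB11, another partner of BiP, lay below Bulk at -0.78, -0.91 and -0.89. In the list of other disulfide and thioredoxin-like proteins AGR2 rose in each comparison, from 220 reads to 847, 753 and 828, and in the list of other ERAD genes FOXRED2, an ERAD flavoprotein, fell from 1360 reads to 467, 377 and 478. No gene was called in the lists of other prolyl isomerases (7 genes), oligosaccharyltransferase (12), translocation (22), COPII (18) and OASIS-type factors (12) that were compared.

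Some members share exons with neighbours, and whether the counting used strand is not given in the sources used here. Of the 6 members called higher, ERN1, XBP1, HERPUD1, CRELD1 and ERO1B overlap no other gene's exons, and CDNF does so over 2.08% of its exonic bases, with HSPA14, at 486, 201, 205 and 218 reads. PDIA6 overlaps others over 25.2% of its exonic bases, PDIA3 over 18.9%, PDIA5 over 14.3%, OS9 over 13.5% and SYVN1 over 10.1%, so their values are less certain. DERL3 shares 77.0% with SMARCB1.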

How the data were processed

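Total RNA from TRIzol extraction went into NEBNext Ultra RNA libraries, as the labels' protocols say. The submitters' processing notes name HISAT2 2.0.5 and featureCounts 1.5.0-p3. Genome build, annotation, strand setting and multi-mapping rules are not given in the sources used here; gene starts and ends equal GENCODE 29 on GRCh38 for 58724 of 58735 genes and for all 40 members. The authors deposited whole-number read counts per gene, not normalized, and FPKM values computed from the same counts, since FPKM times length over count is 1 constant per library, per the file headers and the values.

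From the counts, library sizes were scaled by TMM over all genes (edgeR 4.0.16, R 4.3.3), and log2 ratios used a prior count of 2. Genes with a mean of at least 1 CPM over the 4 libraries were compared. This filter and all sums of CPM used the summed reads as library size, without the TMM factors. With 1 library per group edgeR's quasi-likelihood test and DESeq2's test have no residual degrees of freedom. Reads of 2 libraries were therefore compared by the exact conditional binomial test (SciPy 1.17.1). That test was run on simulated reads that held counting error only, so variation between libraries or sorts was not covered. Intervals are 95% Clopper-Pearson intervals converted to a ratio of reads, or exact conditional odds-ratio intervals for changes of a ratio. They cover counting error only, since each group holds 1 library, and reads carry no molecular identifiers. A count of 0 allows up to 3 reads, or 0.177 to 0.193 CPM. FPKM served to compare levels between genes and for 1 alternative. The other alternatives were other scalings (summed counts, DESeq2 1.42.0 size factors), prior count, filter, fold threshold, a GC correction and the treatment field's groups.

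Named genes are the members, any gene of the PERK arm and of the heat-shock and DNAJ list, and genes of the other lists called in all 3 comparisons. The members and lists were chosen with earlier results of these data known. Protein features were planned but not analysed here.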

Additional observations from a re-analysis of the deposited data

How the results depend on the processing

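With groups from the treatment field, 0 members were called higher in Claret, eGFP and Violet and 6 lower in Claret, and the medians were -0.0066 in eGFP and 0.045 in Violet. A 1.5-fold threshold gave 10 members higher in eGFP and 2, 2 and 1 lower in Claret, eGFP and Violet, and 20, 19 and 16 of the other ER genes higher and 15, 16 and 18 lower. The GC correction added 1 member called lower in each library. On log2(FPKM + 1), 4 of the other ER genes were higher and 1 lower in Claret. DESeq2 size factors gave 4 lower in eGFP and 4 in Violet. The member median, near 0, was -0.027 in eGFP with a filter at 10 CPM, and in Violet 0.025 with summed counts and 0.016 with no filter. Leaving out members with over 5% of exonic bases overlapping another gene, chosen after seeing the data, left 25 members with medians of 0.17, 0.24 and 0.20.

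Of 585 values of single members under alternatives, 569 kept direction and call, 6 lost the call (CDNF and ERO1B on FPKM), 3 gained it (SDF2L1 with the GC correction) and 7 turned, all close to 0. These were, in Violet, SYVN1 at -0.00060 (GC), SELENOS at 0.016 (summed counts) and DERL1 at 0.025 (summed counts) and 0.0015 (GC), and EDEM3 at -0.019 (DESeq2 size factors) and -0.017 (FPKM) in Claret and 0.0051 in eGFP (GC). The cause was not tested. No replicate could be left out, and no paired analysis was possible because each group holds 1 library. Depth limits CDNF and DERL3.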
